A study of Danio rerio with 6 samples.

Results

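The tricarboxylic acid (TCA) cycle and pyruvate oxidation genes described here are 36 genes chosen by symbol: the subunits and regulators of the pyruvate dehydrogenase complex, the enzymes of the cycle, and the malate dehydrogenases and aspartate aminotransferases that carry reducing equivalents between cytosol and mitochondria. Each of the 36 symbols matched 1 of the 25281 gene rows measured. RNA-seq was done on cardiomyocytes sorted from the atrioventricular canal, the tissue ring that joins atrium and ventricle, of zebrafish aged 4 to 8 months. The GFP-positive group (3 libraries), or β-cat ON cells, and the GFP-negative group (3 libraries), or β-cat OFF cells, came from fish of the same genotype. All carried Tg(myl7:GAL4db-TCFΔC-2A-mCherry) together with the responder Tg(UAS:EGFP), and also the marker Tg(myl7:NLS-mCherry). The myl7 promoter is active in cardiomyocytes, so the TCF fusion, and through it EGFP, reports β-catenin activity in cardiomyocytes, and the GFP-negative group has the same transgenes. Comparing GFP-positive with GFP-negative libraries asks what canal cardiomyocytes with active Wnt/β-catenin signalling transcribe differently. The libraries of the groups also differed in markers of other cell types, given below, so the comparison may not be of cardiomyocytes alone. Which cells those transcripts came from was not tested.

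Pyruvate made by glycolysis is brought into mitochondria and converted to acetyl-CoA by the pyruvate dehydrogenase complex, which kinases switch off and phosphatases switch on. The TCA cycle oxidises acetyl-CoA, from pyruvate or from fatty acids, and passes the electrons to the respiratory chain. Its succinate dehydrogenase is at the same time complex II of that chain. Heart muscle depends heavily on this pathway, and all of its enzymes are encoded in the nucleus.

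Total counts were 14783352 to 15934231 in the GFP-positive and 16275969 to 19750914 in the GFP-negative libraries. A count of 0 allows a level of up to 0.138 to 0.232 CPM (3 counts). CPM here are counts per 1e6 of a library's total after TMM scaling, a correction for composition. Groups follow the sample titles; for the GFP-negative libraries 1 further label and the protocol name mCherry-negative, EGFP-positive cells, so which cells were gated there is unclear. As a check of the titles, wif1, a secreted Wnt inhibitor and β-catenin target, had 271, 200.3 and 211 CPM in the GFP-positive libraries, against 8.40, 9.86 and 14.0 CPM in the GFP-negative libraries (log2 fold change 4.40 ± 0.28 SE, edgeR adjusted p = 0.00223). axin2, a feedback inhibitor transcribed in response to β-catenin, had 31.5, 21.4 and 31.3 CPM in GFP-positive and 12.3, 8.21 and 10.2 CPM in GFP-negative libraries, with no overlap but short of the threshold (1.46 ± 0.33, adjusted p = 0.0513). Whether replicates are separate fish or separate sorts is not stated, so p-values reflect the spread among these libraries alone, which may be technical.

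At 8 of the 10 enzyme steps at least 1 gene fell in the GFP-positive libraries, the exceptions being citrate synthase and the kinases and phosphatase. Of the 36 genes, 33 passed the expression filter and were tested. Of these 33, 15 fell, 0 rose and 18 did not pass the threshold of an adjusted p of 0.05 (edgeR quasi-likelihood test, Benjamini-Hochberg over 13490 genes). Over all genes tested, 4.21% were called in either direction, 2.13% lower and 2.08% higher, so the 15 genes that fell, 45.5% of those tested, stand beside 2.13%. The median log2 fold change, GFP-positive over GFP-negative, was -0.95 over the 33 genes and 0.01 over all genes tested, and 31 of the 33 had a negative value, beside 49.5% of all genes. By limma-voom, which lowered the median of all genes, the medians were -0.96 and -0.36. The 15 that fell were 1.72-fold to 2.67-fold lower. In sorted bulk samples fewer cardiomyocytes and less of a transcript per cardiomyocyte cannot be told apart.

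Among the 33 tested genes, 30 had every GFP-positive library below every GFP-negative one. Over all genes tested this held for 17.6%. At an unadjusted p under 0.05, 29 of the 33 were lower and 0 higher, beside 9.79% lower and 9.11% higher over all genes. Neither DESeq2 nor limma-voom called 1 of the 33 higher, while over all genes they called 6.95% and 2.31% higher. With testing restricted to genes that averaged 10 CPM or more, 25 of the 30 genes then tested fell, beside 6.78% of 5843 genes. The calls depend on single libraries, among these genes and over all genes, though not always in the same direction. Leaving out GFP-positive replicates 1, 2 and 3 gave 2, 1 and 13 of the 33 lower, beside 0.541%, 0.319% and 5.09% of all genes. With all 6 libraries, 15 of the 33 and 2.13% of all genes were lower, so without GFP-positive replicate 3 only the share of all genes rose. Leaving out GFP-negative replicates 1, 2 and 3 gave 0, 6 and 1 lower, beside 0.126%, 0.474% and 0.104% of all genes. In these 6 fits 31 or 32 of the 33 genes had a negative value and the median stayed between -1.06 and -0.86.

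**Figure D1:**
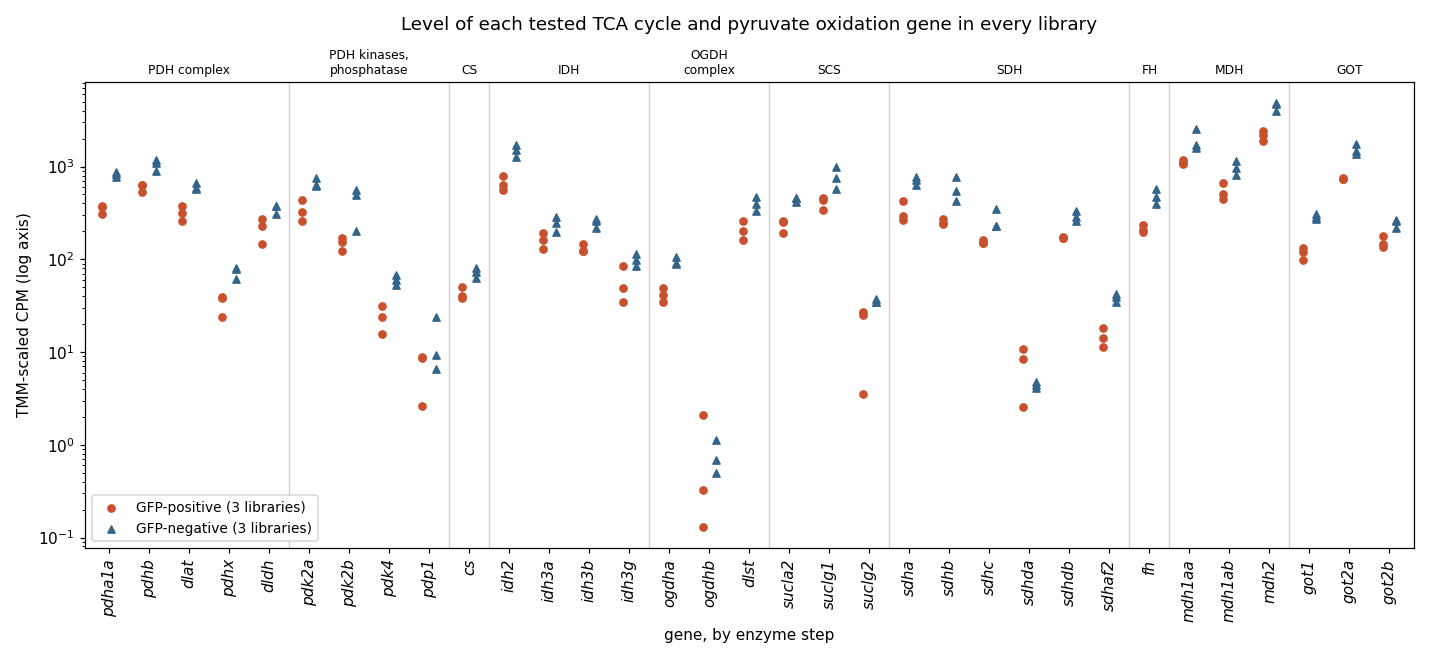
Level of each of the 33 tested genes in every library, in TMM-scaled CPM on a log axis, by enzyme step; circles are the 3 GFP-positive and triangles the 3 GFP-negative libraries. For 30 genes the circles lie below all triangles; pdp1, ogdhb and sdhda are the 3 genes whose groups overlap.

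The pyruvate dehydrogenase complex oxidises pyruvate to acetyl-CoA, and 3 of its 5 tested genes fell, beside 2.13% of all genes tested. pdha1a (ENSDARG00000012387), the E1 alpha subunit that the kinases phosphorylate, had 365, 304 and 380.1 CPM in the GFP-positive libraries, against 866, 773 and 824 CPM in the GFP-negative libraries. It was 2.35-fold lower (log2 fold change -1.23 ± 0.15 SE, adjusted p = 0.0106), with the smallest adjusted p of the 33 genes. The highest GFP-positive library lay far below the lowest GFP-negative one. pdhb (ENSDARG00000021346), the E1 beta subunit, had 628, 529.7 and 626 CPM in GFP-positive and 1169, 890.2 and 1083 CPM in GFP-negative libraries (-0.82 ± 0.16, adjusted p = 0.0401). dlat (ENSDARG00000015918), the E2 acetyltransferase core, had 316, 258 and 372 CPM in GFP-positive and 588, 574 and 672 CPM in GFP-negative libraries (-0.96 ± 0.18, adjusted p = 0.0346). In both genes GFP-positive replicate 2 was the lowest library and the groups did not overlap.

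The other tested parts of the complex had values of the same sign without passing the test. pdhx, which anchors E3 to the E2 core, stood at 33.8 ± 8.67 CPM in GFP-positive and 74.2 ± 10.8 CPM in GFP-negative libraries (SD, n = 3 each; -1.13 ± 0.26, adjusted p = 0.0563). dldh, the E3 dihydrolipoamide dehydrogenase that the 2-oxoglutarate dehydrogenase complex also uses, stood at 216 ± 65.1 CPM and 355 ± 38.0 CPM in the same order (-0.72 ± 0.25, adjusted p = 0.165). pdha1b, the second E1 alpha gene, was barely detected, with 0, 0 and 3 counts in the GFP-positive and 0, 0 and 6 counts in the GFP-negative libraries, and was not tested.

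None of the tested genes that regulate the complex passed the edgeR test. Of the 4 tested among the 36 genes, 3 had every GFP-positive library below every GFP-negative one, beside 17.6% of all genes tested. Those 3 also had an unadjusted edgeR p under 0.05, beside 9.79% of all genes lower. DESeq2, run as an alternative, called the same 3 lower, beside 5.40% of all genes. Over the 11 alternatives that kept the 6 libraries, DESeq2 among them, pdk4 passed in 8, and pdk2a and pdk2b in 5 each. The fourth gene, pdp1, passed in 0 of the 10 that tested it. The kinase gene pdk2a (ENSDARG00000020876) had 431, 328 and 258 CPM in the GFP-positive libraries, against 617, 639.9 and 746 CPM in the GFP-negative libraries (-0.98 ± 0.21, adjusted p = 0.0504). Its paralogue pdk2b had 152, 168 and 122 CPM in GFP-positive and 558, 499 and 201 CPM in GFP-negative libraries (-1.51 ± 0.37, adjusted p = 0.0660). GFP-negative replicate 3 stood well below its group in pdk2b. Over the 6 fits that left out a library, the log2 fold change of pdk2b ran from -1.84 to -1.22. The gene passed in 1 of them, the fit without GFP-negative replicate 3 (-1.84, edgeR adjusted p = 0.0368). With all libraries it did not pass by limma-voom (-1.37, adjusted p = 0.0882) or by limma-voom with sample weights (-1.11, adjusted p = 0.419). The kinase gene pdk4, which is induced by fasting and fatty acids in mammals, stood at 23.7 ± 7.86 CPM in GFP-positive and 59.8 ± 7.24 CPM in GFP-negative libraries (-1.33 ± 0.29, adjusted p = 0.0512). pdp1, a phosphatase that reactivates the complex, had 8.75, 8.55 and 2.60 CPM in GFP-positive and 23.7, 9.21 and 6.49 CPM in GFP-negative libraries (-0.98 ± 0.70, adjusted p = 0.578). The groups of pdp1 overlapped, as did those of 2 further regulators on the wider pathway list, whose values were positive. The kinase gene pdk1 had 2.48, 0 and 8.64 CPM in GFP-positive and 1.92, 1.75 and 1.66 CPM in GFP-negative libraries (1.06 ± 1.56, adjusted p = 0.848). The phosphatase gene pdp2 had 0, 2.19 and 0.0650 CPM in GFP-positive and 0.727, 0.751 and 0.737 CPM in GFP-negative libraries (0.03 ± 1.54, adjusted p = 0.998). In both genes the 3 GFP-negative libraries lay close together and the GFP-positive libraries lay on either side of them. The kinase genes pdk3a and pdk3b were too low to test: pdk3a had 8, 0 and 0 counts in the GFP-positive and 3, 14 and 16 in the GFP-negative libraries, and pdk3b had 9 counts in GFP-positive replicate 1 and 0 in the other 5 libraries.

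Citrate synthase and isocitrate dehydrogenase carry acetyl-CoA into the cycle and through its first oxidation. cs (ENSDARG00000103364), the citrate synthase gene, had 50.3, 40.2 and 38.1 CPM in the GFP-positive libraries, against 80.4, 73.1 and 63.6 CPM in the GFP-negative libraries, and did not pass (-0.76 ± 0.21, adjusted p = 0.0906) although the groups did not overlap. idh2 (ENSDARG00000003795), the mitochondrial NADP-dependent isocitrate dehydrogenase, fell 2.24-fold, with 800.3, 565 and 639 CPM in GFP-positive and 1728, 1263 and 1492 CPM in GFP-negative libraries (-1.16 ± 0.19, adjusted p = 0.0259). Of the NAD-dependent enzyme that drives the cycle, the regulatory subunit gene idh3b (ENSDARG00000044753) fell, with 122, 124 and 145 CPM in GFP-positive and 262, 218 and 275 CPM in GFP-negative libraries (-0.95 ± 0.17, adjusted p = 0.0292). The catalytic subunit gene idh3a stood at 161 ± 32.1 CPM in GFP-positive and 244 ± 45.4 CPM in GFP-negative libraries (-0.60 ± 0.22, adjusted p = 0.185), the smallest difference among the 30 genes with separated groups. idh3g, the other regulatory subunit gene, did not pass either (56.1 ± 25.8 CPM and 98.8 ± 14.2 CPM in the same order; -0.82 ± 0.33, adjusted p = 0.244).

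The 2-oxoglutarate dehydrogenase complex makes succinyl-CoA, and its E1 gene ogdha was the member that fell. ogdha (ENSDARG00000034270) had 41.5, 48.7 and 34.9 CPM in the GFP-positive libraries, against 92.2, 106 and 88.8 CPM in the GFP-negative libraries (-1.20 ± 0.21, adjusted p = 0.0264). dlst (ENSDARG00000014230), its E2 succinyltransferase, had 260.1, 163 and 201 CPM in GFP-positive and 473, 329.7 and 399 CPM in GFP-negative libraries without passing (-0.94 ± 0.23, adjusted p = 0.0621). The second E1 gene, ogdhb, was near the detection limit, with 2.09, 0.321 and 0.130 CPM in GFP-positive and 1.12, 0.500 and 0.691 CPM in GFP-negative libraries. Its log2 fold change of 0.13 ± 1.17 was smaller than its error and had no settled sign.

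Succinyl-CoA synthetase pairs a shared alpha subunit, suclg1, with a beta subunit that sets whether ATP (sucla2) or GTP (suclg2) is made. sucla2 (ENSDARG00000005359) fell, with 253, 190.3 and 260.5 CPM in the GFP-positive libraries, against 456, 411 and 463 CPM in the GFP-negative libraries (-0.92 ± 0.17, adjusted p = 0.0346). suclg1 (ENSDARG00000052712) had 454, 340.5 and 435 CPM in GFP-positive and 977, 578 and 752 CPM in GFP-negative libraries and did not pass (-0.91 ± 0.23, adjusted p = 0.0703). suclg2 had 25.2, 26.9 and 3.51 CPM in GFP-positive and 34.8, 36.9 and 34.9 CPM in GFP-negative libraries (-0.94 ± 0.65, adjusted p = 0.561). In suclg2 the 3 GFP-negative libraries lay close together, while GFP-positive replicate 3 was far below the other 2 of its group; without it the log2 fold change was -0.45.

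Succinate dehydrogenase had the most genes that fell of any step, 4 of 6 tested, beside 2.13% of all genes tested. It was also the step with the most genes tested. sdha (ENSDARG00000016721), the flavoprotein subunit that binds succinate, had 429, 292 and 268 CPM in the GFP-positive libraries, against 715, 640.2 and 773 CPM in the GFP-negative libraries (-1.11 ± 0.21, adjusted p = 0.0374). sdhb (ENSDARG00000075768), the iron-sulfur subunit, had 244, 238 and 272 CPM in GFP-positive and 770.4, 421 and 541 CPM in GFP-negative libraries (-1.20 ± 0.24, adjusted p = 0.0386). GFP-positive libraries were tightly grouped in sdhb, whereas GFP-negative replicate 1 stood above its group. sdhdb (ENSDARG00000030139), a membrane anchor subunit, had 173, 170.3 and 168 CPM in GFP-positive and 336, 258 and 288 CPM in GFP-negative libraries (-0.79 ± 0.16, adjusted p = 0.0424). sdhaf2 (ENSDARG00000062971), the assembly factor that attaches FAD to the flavoprotein subunit, had 18.0, 14.1 and 11.3 CPM in GFP-positive and 41.9, 34.9 and 38.9 CPM in GFP-negative libraries (-1.42 ± 0.28, adjusted p = 0.0379). It was 2.67-fold lower, the largest fold among the 15 genes that fell. The assembly factor genes sdhaf1, sdhaf3 and sdhaf4 on the wider pathway list did not pass. Their log2 fold changes were -1.75, -0.89 and -0.35 (edgeR adjusted p = 0.591, 0.276 and 0.560). The other anchor gene, sdhc, stood at 154 ± 7.49 CPM in GFP-positive and 270.3 ± 69.6 CPM in GFP-negative libraries and did not pass (-0.81 ± 0.21, adjusted p = 0.0742). sdhda, the paralogue of sdhdb, was above the GFP-negative libraries in 2 of 3 GFP-positive ones, with 8.44, 10.7 and 2.53 CPM in GFP-positive and 4.43, 4.05 and 4.79 CPM in GFP-negative libraries. Its groups overlapped and it did not pass (0.70 ± 0.70, adjusted p = 0.732).

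Fumarase turns fumarate into malate in mitochondria and cytosol. Its gene fh (ENSDARG00000075132) fell 2.27-fold, with 234, 206 and 198 CPM in the GFP-positive libraries, against 579, 394 and 474 CPM in the GFP-negative libraries (-1.18 ± 0.19, adjusted p = 0.0223).

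Malate dehydrogenases close the cycle in mitochondria (mdh2) and act in the cytosol (mdh1aa, mdh1ab), and with the aspartate aminotransferases of the cytosol (got1) and mitochondria (got2a, got2b) they form the malate-aspartate shuttle. mdh2 (ENSDARG00000043371) fell 2.09-fold, with 2171, 1897 and 2403 CPM in the GFP-positive libraries, against 4865, 3975 and 4701 CPM in the GFP-negative libraries (-1.07 ± 0.16, adjusted p = 0.0177). got1 (ENSDARG00000039093) had 121, 134 and 97.4 CPM in GFP-positive and 274, 310.2 and 284 CPM in GFP-negative libraries (-1.30 ± 0.18, adjusted p = 0.0137). got2a (ENSDARG00000041068) had 749.6, 732 and 743 CPM in GFP-positive and 1763, 1458 and 1381 CPM in GFP-negative libraries (-1.05 ± 0.15, adjusted p = 0.0163). All 3 had separated groups, and the GFP-positive libraries of got2a hardly differed from each other. The cytosolic genes mdh1aa and mdh1ab did not pass, with 1105 ± 53.4 CPM and 537 ± 112 CPM in GFP-positive and 1935 ± 506 CPM and 974 ± 173 CPM in GFP-negative libraries (log2 fold changes -0.81 ± 0.20 and -0.86 ± 0.21, adjusted p = 0.0694 and 0.0654). got2b was also short of the threshold (153 ± 21.9 CPM in GFP-positive and 248 ± 27.5 CPM in GFP-negative libraries; -0.69 ± 0.18, adjusted p = 0.0731).

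**Figure D2:**
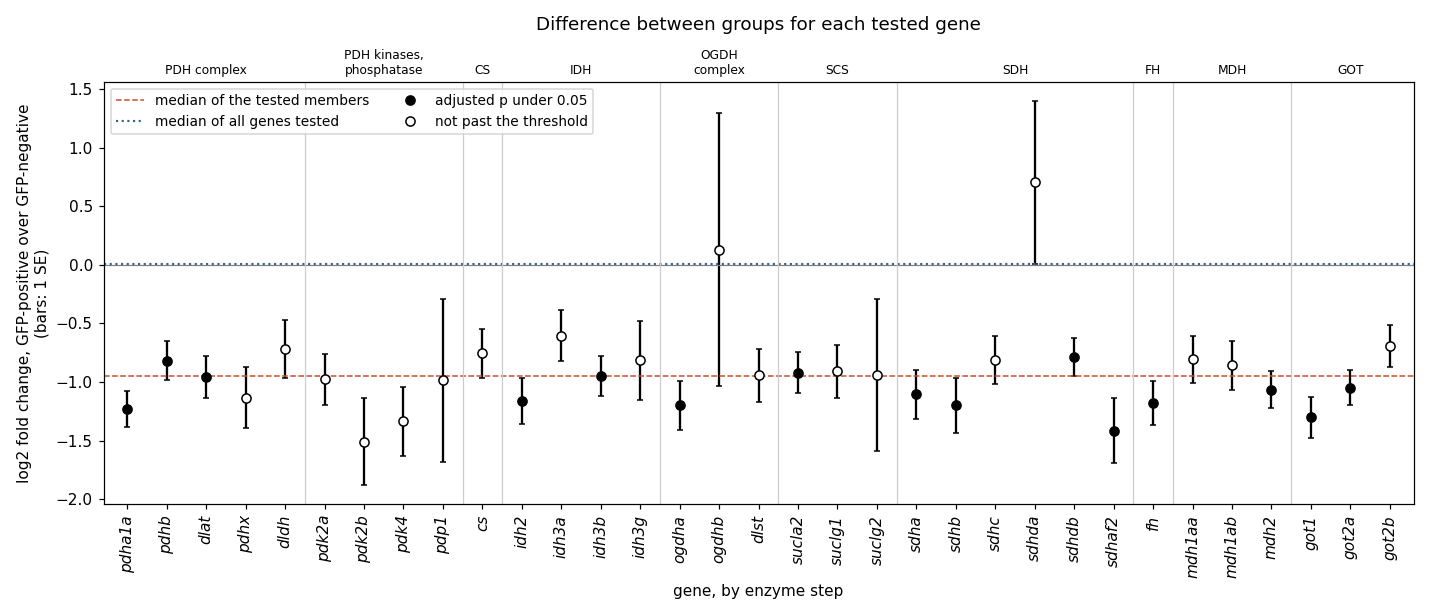
Log2 fold change, GFP-positive over GFP-negative, of each tested gene by enzyme step, with bars of 1 SE; filled points passed an adjusted p of 0.05. Most points lie near the dashed median of -0.95, away from the dotted median of all genes at 0.01, and ogdhb and sdhda are the 2 points above 0.

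Step medians of the log2 fold change ran from -1.18 for fumarase and -1.16 for the kinases and phosphatase to -0.76 for citrate synthase, and the difference between steps was not tested. The median SD of log2 CPM between libraries was 0.25 in the GFP-positive and 0.18 in the GFP-negative group over the 33 genes, beside 0.81 and 0.26 over all genes tested, many of which have lower levels.

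The proportions of paralogues and alternative subunits overlapped between the groups in each pair compared. In 7 pairs with enough counts, the share of the pair's counts taken by the first gene, which needs no library scaling and is not corrected for length, was compared over libraries. For each of them the two-sided exact permutation test gave an adjusted p of 1.00 over the 7 pairs; 3 against 3 libraries cannot go below 0.1. got2a took 80.8%, 84.4% and 83.5% of the got2 counts in GFP-positive and 86.8%, 87.1% and 84.2% in GFP-negative libraries, a mean difference of -3.10 percentage points. pdk2a took 73.9%, 66.1% and 68.0% of the pdk2 counts in GFP-positive and 52.5%, 56.2% and 78.8% in GFP-negative libraries. GFP-negative replicate 3 lay apart from its group in that pair. The mean difference was 6.84 percentage points over all libraries. With each library left out in turn it ran from 1.85 to 14.97, the highest value being that without GFP-negative replicate 3. mdh1aa took 62.2% to 70.4% of the mdh1 counts in GFP-positive and 63.8% to 68.6% in GFP-negative libraries. sdhda took 4.66%, 5.90% and 1.48% of the sdhd counts in GFP-positive and 1.30%, 1.55% and 1.63% in GFP-negative libraries. suclg2 took 9.06%, 12.4% and 1.33% of the beta subunit counts in GFP-positive and 7.09%, 8.24% and 6.99% in GFP-negative libraries. In both of these pairs GFP-positive replicate 3 was below the other 2 libraries of its group. pdha1a and ogdha took at least 95.2% of their pairs in each library.

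**Figure D3:**
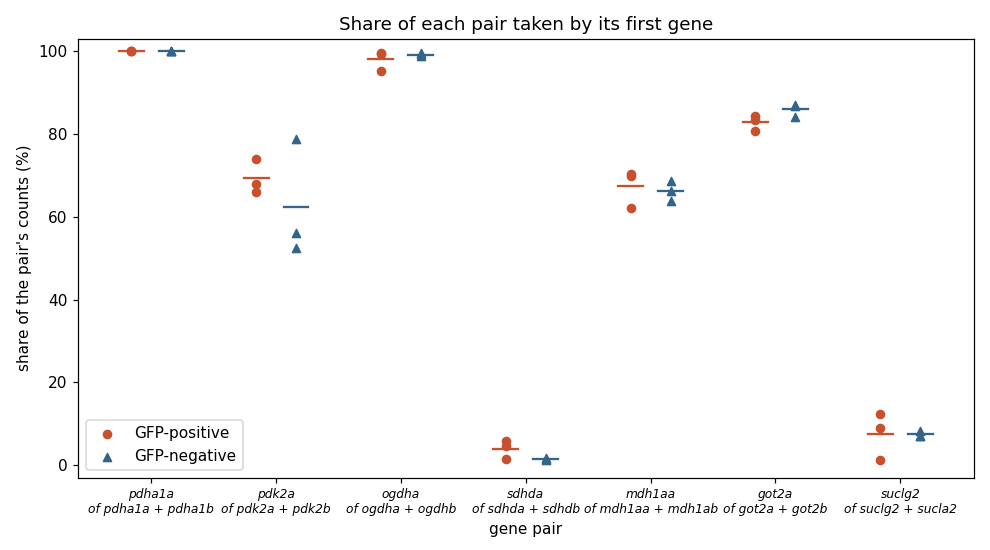
Share of each pair's counts taken by its first gene, in percent, for 7 pairs; points are libraries and lines are group means, GFP-positive left of GFP-negative. The groups overlap in each pair, and pdk2a in GFP-negative replicate 3 (78.8%) lies apart from the other 2 libraries of its group (52.5% and 56.2%).

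Other genes around the pathway, on a list of 43 symbols of which 36 had a row, included carriers of the shuttle that fell too. Of 30 tested, 4 fell, 0 rose and 26 did not pass by edgeR, beside 2.13% lower and 2.08% higher over all genes. The median log2 fold change of the 30 was -0.37. At an unadjusted p under 0.05, 8 were lower and 1 higher, beside 9.79% and 9.11% of all genes, and 1 was higher with DESeq2 and 0 with limma-voom, beside 6.95% and 2.31% of all genes. The genes that fell were the mitochondrial pyruvate carrier subunit mpc2, the malate carrier slc25a11 and the aspartate-glutamate carrier slc25a12 of the shuttle, and the lactate dehydrogenase B gene ldhba. slc25a11 had 293, 261 and 287 CPM in the GFP-positive libraries, against 621, 482 and 581 CPM in the GFP-negative libraries (-1.001 ± 0.16, adjusted p = 0.0215). ldhba had 2139, 1908 and 1878 CPM in GFP-positive and 6109.6, 3732 and 3942 CPM in GFP-negative libraries (-1.22 ± 0.22, adjusted p = 0.0294). On this list 13 of the 30 tested genes, the 4 that fell among them, had every GFP-positive library below every GFP-negative one. In 1 gene the order was reversed and in 16 the groups overlapped. Over all genes tested, 17.6% had every GFP-positive library below. mpc2 had 249, 231 and 212 CPM in GFP-positive and 542, 368 and 388 CPM in GFP-negative libraries (-0.91 ± 0.19, adjusted p = 0.0489). The other subunit gene of that carrier, mpc1, did not pass, although its groups did not overlap. It stood at 515 ± 8.84 CPM in GFP-positive and 851 ± 177 CPM in GFP-negative libraries (-0.73 ± 0.18, adjusted p = 0.0656). slc25a12 had 106, 91.8 and 119 CPM in GFP-positive and 193, 176 and 223 CPM in GFP-negative libraries (-0.90 ± 0.18, adjusted p = 0.0395). Without each library in turn, 0 to 3 of the 30 fell, beside 0.104% to 5.09% of all genes. The number was 0 when GFP-positive replicate 1 or 2 or GFP-negative replicate 1 or 3 was left out. It was 2 when GFP-negative replicate 2 was left out.

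The libraries of the groups also differed in what else they held. The 36 genes together took 1.68%, 1.47% and 1.58% of the counts from nuclear genes in GFP-positive and 2.45%, 2.41% and 2.45% in GFP-negative libraries. Transcripts encoded in the mitochondrial genome ran the other way, at 35.6% to 44.9% of all counts in GFP-positive and 11.9% to 15.7% in GFP-negative libraries (means 40.3 ± 4.65% and 14.1 ± 2.01%, SD over 3 libraries each; p = 0.1 by an exact two-sided permutation test, its lower limit here). With those transcripts removed before scaling, 10 of the 33 genes fell, beside 1.44% of all genes, and the median was -0.93. Fewer genes were detected in the GFP-positive libraries: of the 13490 tested genes, 956, 725 and 1270 had a count of 0 there, against 66, 4 and 13 in the GFP-negative libraries. Genes with at least 10 counts numbered 10093 to 12834 in GFP-positive and 13069 to 14355 in GFP-negative libraries.

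Markers of cardiomyocytes were lower in the GFP-positive libraries: 4 of 9 tested fell, beside 2.13% of all genes (median log2 fold change -0.53). Those that fell were cmlc1 (-1.08), tnnt2a (-1.03), myl7 (-0.98) and tpm4a (-0.97). Those that did not pass were ryr2b (-0.53), ttn.1 (-0.49), atp2a2a (-0.48), tnni1b (-0.30) and ttn.2 (-0.22). The groups of tnni1b, ttn.2 and ryr2b overlapped. Summed over the list, the level was 34284 to 43857 CPM in GFP-positive and 61542 to 86325 CPM in GFP-negative libraries. Most of that sum came from myl7, cmlc1 and tpm4a. myl7, the gene whose promoter drives the reporter, had 15711, 12612 and 15376 CPM in GFP-positive and 34629, 24675 and 26916 CPM in GFP-negative libraries (-0.98 ± 0.18, adjusted p = 0.0321). Markers of several other cell types rose, beside 2.08% of all genes called higher. They were 2 of 10 tested endocardial and endothelial, 4 of 9 fibroblast and 4 of 7 epicardial markers. A further 2 of 6 smooth muscle and pericyte and 3 of 6 erythrocyte markers rose. tcf21 stands on both the fibroblast and the epicardial list. The epicardial gene wt1a was too low to test, with 0, 0 and 3 counts in GFP-positive and 7, 12 and 10 in GFP-negative libraries. Those epicardial markers that did not pass were tbx18 (0.99), wt1b (1.05) and podxl (0.75), whose groups overlapped. Most of the summed epicardial level came from krt4 and krt8. On the smooth muscle and pericyte list 4 of 6 values were positive, while pdgfrb (-1.05) and notch3 (-1.56) were negative and did not pass. acta2 made up most of that list's summed level. Of 6 macrophage markers 0 were called in either direction by edgeR, DESeq2 or limma-voom, and 0 had an unadjusted p under 0.05. Summed levels of these lists in GFP-positive against GFP-negative libraries were 351 to 598 against 96.1 to 176 CPM (endocardium and endothelium) and 475 to 753 against 105 to 248 CPM (fibroblast). They were 755 to 1205 against 252 to 347 CPM (epicardium) and 559 to 994 against 177 to 295 CPM (smooth muscle and pericyte). For the erythrocyte list they were 1590.4 to 2443 against 509.1 to 612.7 CPM, and for the macrophage list 54.6 to 315 against 97.4 to 281 CPM. Among all of these markers with a row, cnn1a of the smooth muscle list was the 1 gene at 0 in all 6 libraries. The list symbols actc1a and hbba1 had no row. The part of these marker, mitochondrial and detection differences in the lower TCA cycle levels was not tested.

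**Figure D4:**
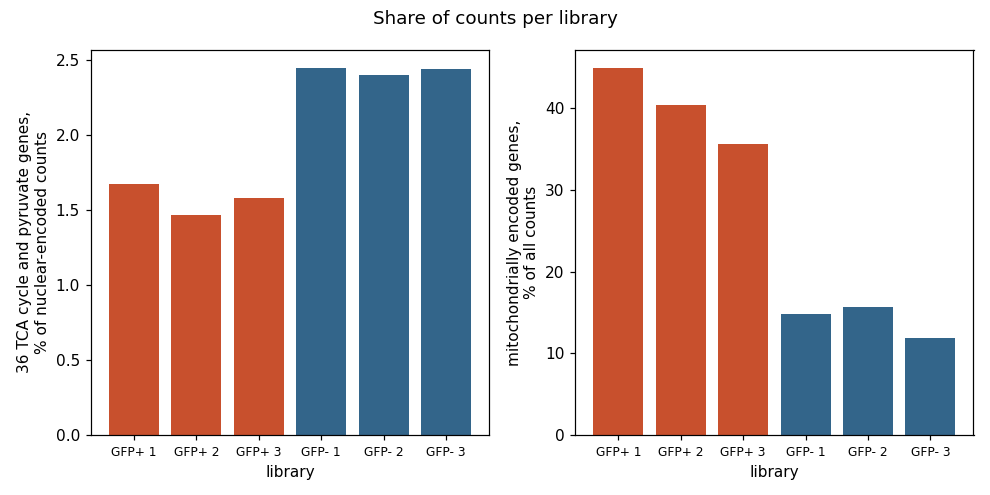
Share of counts per library, GFP-positive left of GFP-negative: left panel, the 36 TCA cycle and pyruvate genes as percent of nuclear-encoded counts; right panel, mitochondrially encoded genes as percent of all counts. The 36 genes take 1.47% to 1.68% in GFP-positive and 2.41% to 2.45% in GFP-negative libraries, and the mitochondrially encoded share runs the other way.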

How the data were processed

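For each library the authors deposited raw total counts per gene, per the file headers; the values are whole numbers. Per the labels' protocols, collagenase (3 mg/ml, 30 min) released the cells, which were sorted live, and cDNA was amplified with SMART-Seq v4. Amplification adds no molecular identifiers, so the detection floors cover counting error only. The SD and SE values given include the spread between libraries. Not given in the sources used here are the aligner, the counting rules, the genome build and the strand handling; coordinates are therefore left out. In the RefSeq gene table of GRCz12tu, which may not be the files' build, 15 of the 36 genes overlap another gene, among them idh3b, ogdha, sdhdb, sdhaf2 and mdh2, and reads of overlapping genes and close paralogues could have been shared.

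Counts of all genes were fitted in R 4.3.3 with edgeR 4.0.16: filterByExpr, TMM scaling, group as the only term, the robust quasi-likelihood F test, and Benjamini-Hochberg adjustment over 13490 genes with a threshold of 0.05. Standard errors were derived from each fold change and its F statistic; levels are TMM-scaled CPM. The SD of log2 CPM used a pseudocount of 0.5. Pair shares needed at least 20 counts per library. The fit was also run on simulated data with changes put into randomly drawn genes, where it recovered 3 of 50 changes of 2-fold. Those genes were not chosen to have the low spread of the genes described here. The recovery is therefore not a rate for these genes. Within groups, the chi-square per degree of freedom between library pairs was 32.1 to 102, so no table was present under 2 titles.

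Values in every library are given for genes past the threshold and for the gene with the highest mean CPM, not corrected for length, of each step; the remaining genes given that way (pdha1b, pdk1, pdk2b, pdk3a, pdk3b, pdp1, pdp2, ogdhb, suclg2, sdhda, ldha, glud1a and glud1b) were picked with their values in view. The genes and lists were chosen with earlier results of these data known. Planned promoter motifs were not analysed here. Alternatives were other scalings, filters, DESeq2 1.42.0, limma 3.58.1 (voom), a replicate block, and leaving out each library.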

Additional observations from a re-analysis of the deposited data

How the results depend on the processing

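Of the 15 genes that fell, pdha1a, idh2, mdh2, got1 and got2a passed in all 11 alternatives that kept the 6 libraries, and the other 10 in 7 to 10 of them. The number lower was 10 with DESeq2 size factors or with mitochondrially encoded genes removed, 11 with the abundance trend of each library removed, 19 with upper-quartile factors, 21 with limma-voom, 9 with limma-voom and sample weights, 23 with no expression filter, 25 with library totals only, 25 with a minimum mean of 10 CPM and 26 with DESeq2; the number higher was 0 in all of them. In the same order of settings, the number lower over all genes was 200, 194, 199, 450, 549, 244, 331, 507, 396 and 729, beside 288 as reported. The counts have different bases: 23172 genes, 36 of them members, were tested with no filter, and 5843, 30 of them members, with the 10 CPM minimum. With mitochondrially encoded genes removed 13477 were tested, and 13490 in the other settings, with 33 members in each. The median of all genes moved to -0.36 with limma-voom, -0.30 with sample weights, -0.29 with the replicate block, -0.16 with library totals, -0.11 with upper-quartile factors and 0.19 with the abundance trend removed. The median of the 33 genes minus that of all genes was -0.96 as reported, -0.59 with limma-voom, -0.63 with sample weights, -0.66 with the replicate block and -0.89 with the trend removed. Of the other pathway genes, 2 were lower with DESeq2 size factors, 2 with mitochondrially encoded genes removed and 0 with sample weights, and 1 was higher with DESeq2. Without each library in turn, 0 to 13 of the 33 genes and 0 to 3 of the other pathway genes were lower, beside 14 to 687 of all genes; the cause was not tested. ogdhb changed sign with library totals (-0.074), limma-voom (-0.61), the replicate block (-0.62), and without GFP-positive replicate 1 (-1.71) or GFP-negative replicate 2 (-0.10), and ran from -1.71 to 0.64 over the 6 fits that left out a library.

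With the replicate number as a block, 21 genes were lower, 14 of them among the 15, beside 290 of all genes. Deviations of same-numbered libraries correlated at 0.13, 0.19 and 0.09 for replicates 1, 2 and 3. Libraries of different numbers correlated at -0.12 to -0.01. The labels do not say what a number shares, so the main fit did not pair the samples. Whether they were paired is not known. A minimum of 100 counts removed none of the 7 pairs, whose smallest total in a library was 539 counts, so it was no check of the shares. With 3 libraries a group, a gene that did not pass is not shown to be unchanged, and genes under about 1 CPM rest on few counts.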

Other observations

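Lactate dehydrogenase links the pathway to glycolysis, and the shares of its forms are given here, chosen after their values were seen. ldhba, the gene of the form that predominates in mammalian heart, took 61.0%, 66.7% and 62.3% of the counts of ldhba and ldha in GFP-positive and 78.7%, 85.2% and 81.6% in GFP-negative libraries, with no overlap. ldha itself had 1369.8, 951 and 1136 CPM in GFP-positive and 1658, 648 and 889.7 CPM in GFP-negative libraries (log2 fold change 0.11 ± 0.34, adjusted p = 0.937). Glutamate dehydrogenase, which feeds 2-oxoglutarate into the cycle, has a pair of genes, and neither passed: glud1a had 74.2, 83.1 and 91.1 CPM in GFP-positive and 60.2, 59.0 and 52.7 CPM in GFP-negative libraries (0.53 ± 0.18, adjusted p = 0.162), and glud1b 368, 341 and 424 CPM and 385, 391 and 495 CPM in the same order (-0.17 ± 0.17, adjusted p = 0.744). Differences between these genes and the 33 were not tested.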
